A study of Mus musculus with 23 samples.

Results

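Expression of 6 genes of glucose synthesis was followed in the colonic epithelium of aged mice: Pck1, Fbp1, Fbp2, Pcx, G6pc and G6pc3. They were taken by symbol, with Pck1 at the centre, and all 6 were found among the 24917 gene loci of the count table. RNA depleted of ribosomal RNA was sequenced from 23 samples of male C57BL/6 mice, which started on their diets when 6 weeks old and ate them over 43 weeks. Fat gave 10% of the calories for LF mice and 60% for HF mice, with lard as its source in both diets. HF-LF mice, the weight-loss regimen, ate the 60% chow over 15 weeks and the 10% chow over the last 28. No group carried a transgene or a drug. Batch 1 held 4 LF, 3 HF and 4 HF-LF samples, and batch 2 held 4 LF, 3 HF and 5 HF-LF samples. Each diet has more samples over both batches than the 5 animals the study's methods name, so some samples may share an animal, and p-values then measure a spread between samples that may in part be technical. If animals are shared across batches, agreement of the 2 batches and the test between them do not rest on independent animals.

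Gluconeogenesis makes glucose from lactate, amino acids and glycerol. Most of its steps are glycolytic reactions run backwards, but 3 of the glycolytic steps cannot be reversed and are bypassed by enzymes of their own: pyruvate carboxylase (Pcx) with phosphoenolpyruvate carboxykinase (cytosolic Pck1, mitochondrial Pck2), fructose-1,6-bisphosphatase (Fbp1 in liver and kidney, Fbp2 in muscle), and glucose-6-phosphatase (G6pc in liver and kidney, G6pc3 in most tissues). Pck1 also feeds glyceroneogenesis, the making of glycerol phosphate for triglycerides, and its transcription in liver is known to be raised by cAMP and glucocorticoids and lowered by insulin.

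The stretch before the start of Pck1 is shown because Pck1 is the member whose counts differ most between the diets, and that of G6pc because it is the member with hardly any counts. Sequences are from RefSeq on GRCm38.p6, 250 bases up to the base before the annotated start, with capitals marking the motifs found. All 6 members matched an entry. The Pck1 window lies on the plus strand at chr2:173152823-173153072 and ends where the locus of the count table begins. The G6pc window lies on the plus strand at chr11:101367466-101367715, and its RefSeq start differs from the start of the locus in the count table.
Pck1: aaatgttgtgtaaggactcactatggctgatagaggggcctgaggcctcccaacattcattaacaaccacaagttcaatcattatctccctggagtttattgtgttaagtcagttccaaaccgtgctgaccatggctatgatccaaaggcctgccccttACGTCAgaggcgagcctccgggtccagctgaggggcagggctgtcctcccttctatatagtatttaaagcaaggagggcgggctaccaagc
G6pc: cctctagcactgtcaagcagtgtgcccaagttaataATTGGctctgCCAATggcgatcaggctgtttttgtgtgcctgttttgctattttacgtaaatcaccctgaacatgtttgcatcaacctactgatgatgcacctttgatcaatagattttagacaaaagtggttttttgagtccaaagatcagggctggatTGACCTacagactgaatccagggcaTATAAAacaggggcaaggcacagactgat

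Both strands were searched for the TATA box letters TATAAA, for the CCAAT box, for ACGTCA (the core of the cAMP response element), TGTTTAC (a forkhead site), AGGTCA (a nuclear receptor half-site) and TGTTCT (a glucocorticoid receptor half-site). The Pck1 window held ACGTCA alone, with its first base 91 bases before the start, a motif present in 6.47% of 32851 promoter windows of this length. The G6pc window held TATAAA, which 12.4% of windows hold, CCAAT on each strand (33.8%) and AGGTCA (14% of windows). The window at the start of the Pcx locus held CCAAT at 3 places, that of Fbp1 at 1 place, and that of G6pc3 held TGTTCT (16.1%). The Fbp2 window held none of the motifs, and TGTTTAC (3.17%) was in no member's window. A match of letters is a description and not a binding site.

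The members stood at very different levels. Scaled to CPM (counts scaled to equal library totals by TMM factors) and divided by the length of the longest principal transcript in GENCODE, the mean over 23 samples was 124 ± 24.0 CPM per kilobase for Pck1 and 109 ± 13.5 for Fbp2 (SD). Pcx followed with 37.5 ± 4.08, G6pc3 with 19.97 ± 3.87, and Fbp1 with 1.69 ± 0.484. The order of Pck1 and Fbp2 is not settled: divided by the length of all annotated exons joined, Pck1 stood at 95.9 and Fbp2 at 101 CPM per kilobase. Of the isoenzymes, the muscle form Fbp2 exceeded the liver form Fbp1 in every sample, with medians of the per-length ratio within a group between 49.7 and 75.5. G6pc was close to absent: it had 0 counts in 19 of 23 samples and between 1 and 3 in the others, at or under the limit of 3 counts, which is between 0.0459 and 0.103 CPM at these depths. Its files allow no statement on diet, and the filter on low counts left 5 members. Limits of this kind cover counting error only.

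Pck1 was lower in HF mice than in LF mice in both batches. In batch 1 the 4 LF samples held 418, 409.8, 391 and 283 CPM, the 3 HF samples 229, 279.7 and 192, and the 4 HF-LF samples 265, 353, 309.5 and 271. Every HF value was below every LF value, although the lowest LF sample and the highest HF sample differed little, and the HF-LF samples overlapped both groups. The HF mean was 62.3% of the LF mean, a log2 difference of -0.68 (SE 0.16).

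In batch 2 the 4 LF samples held 348, 386, 375 and 369 CPM, the 3 HF samples 303, 274 and 245, and the 5 HF-LF samples 351, 393, 343, 386 and 389. All HF values were below all LF and all HF-LF values, and the LF and HF-LF samples overlapped. The HF mean was 74.1% of the LF mean, a log2 difference of -0.43 (SE 0.08). The HF-LF mean was 101% of the LF mean (log2 difference 0.01, SE 0.07), whereas in batch 1 it was 79.8% of it (log2 difference -0.33, SE 0.15). Against HF, HF-LF mice had log2 differences of 0.36 (SE 0.16) in batch 1, which was 0.23 without HF replicate 3, and 0.44 (SE 0.08) in batch 2. Since Pck1 had been chosen with its diet values known, these differences are descriptions and carry no test.

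**Figure D1:**
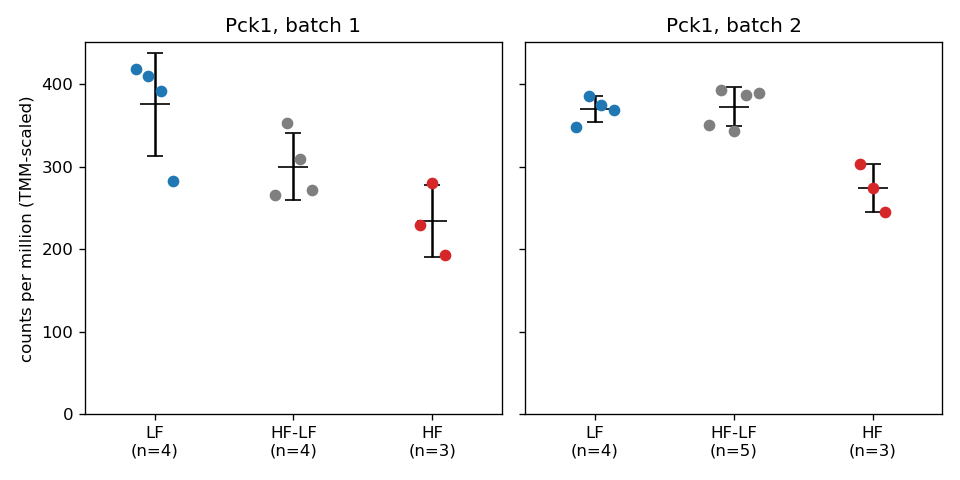
Pck1 in CPM (vertical axis, from 0) in each sample of the 3 diets, with batch 1 on the left and batch 2 on the right; points are samples, and horizontal marks with bars are the group mean and SD. HF samples lie below all LF samples in both batches, and the HF-LF samples overlap the LF samples in batch 2 and both other groups in batch 1.

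Pcx, which makes the oxaloacetate that Pck1 uses, was also at its lowest in HF mice. In batch 1 the LF samples held 163, 191, 158 and 163 CPM and the HF samples 125, 152 and 125, without overlap, a log2 difference of -0.33 (SE 0.11). In batch 2 the LF samples held 138, 155, 157 and 162 CPM and the HF samples 149, 134 and 128, so that the groups overlapped, with a log2 difference of -0.16 (SE 0.08). The HF-LF samples overlapped the HF samples in both batches, with HF-LF minus HF at 0.25 (SE 0.11) and 0.15 (SE 0.08). The Pcx locus overlaps Lrfn4 on the opposite strand, and whether counting used strand is not given in the sources used here.

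The fructose bisphosphatases had higher means in HF than in LF mice. Fbp2 had 155, 127, 119 and 149 CPM in the LF samples of batch 1 and 165, 138 and 196 in the HF samples, which overlapped (log2 difference 0.27, SE 0.13, and 0.15 without HF replicate 3). In batch 2 its LF samples held 128, 140.3, 134 and 147 CPM, all below the HF samples with 162, 166 and 159 (log2 difference 0.24, SE 0.09). Fbp1 had only 46 to 250 counts per sample, and its groups overlapped in every contrast. Its log2 difference between HF and LF mice was 0.42 (SE 0.30) in batch 1 and 0.39 (SE 0.23) in batch 2. These values rest on single samples: without 1 HF sample the first was 0.14 (replicate 3) or 0.69 (replicate 2), and the second 0.25 (replicate 3) or 0.58 (replicate 1).

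G6pc3, the widely expressed glucose-6-phosphatase, was higher in every HF sample than in every LF sample of its batch. Its LF samples held 26.2, 19.9, 22.9 and 24.4 CPM in batch 1, against 30.3, 26.4 and 30.4 in the HF samples (log2 difference 0.32, SE 0.12). In batch 2 the LF samples held 36.6, 36.8, 36.7 and 34.8 CPM, against 37.5, 38.5 and 41.9 (log2 difference 0.12, SE 0.06, and 0.07 without HF replicate 3). The nearest samples of the groups were less than 1 CPM apart in both batches. HF-LF minus HF was -0.15 (SE 0.12) in batch 1, where it was -0.07 without HF-LF replicate 2, and -0.17 (SE 0.06) in batch 2, where all HF-LF samples were below all HF samples.

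**Figure D2:**
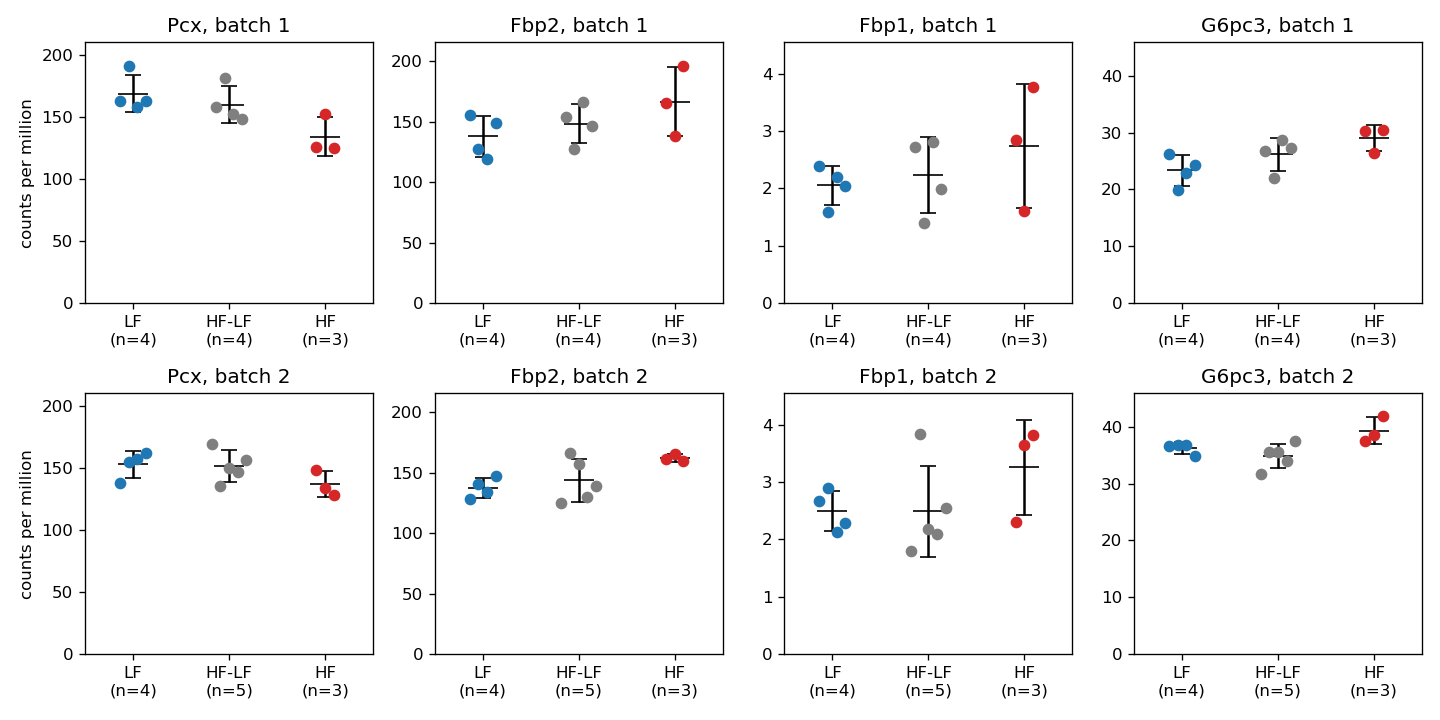
CPM (vertical axes, each from 0) of Pcx, Fbp2, Fbp1 and G6pc3 in each sample by diet, batch 1 in the upper row and batch 2 in the lower row; points are samples, and horizontal marks with bars are the mean and SD. The HF means of Pcx are below, and those of Fbp2, Fbp1 and G6pc3 above, the LF means in both batches.

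Genes were called where the adjusted p was under 0.05 and levels differed by more than 1.2 times. By this rule 1 of the 5 members kept by the filter (Pck1) passed for HF minus LF in batch 2, where 7.7% of all 14377 genes did, and 1 (Pck1) for HF-LF minus HF, where 14.6% did. For HF-LF minus LF none passed, beside 0.00696% of all genes. None passed in batch 1, where 0.00693% of 14428 genes did in each of the contrasts with HF and 0% for HF-LF minus LF. HF and LF samples did not overlap for 3 of the 5 in batch 1 (Pck1, Pcx and G6pc3, background 13.6%) and for 3 in batch 2 (Pck1, Fbp2 and G6pc3, background 27.3%), and HF-LF and HF samples for 2 in batch 2 (Pck1 and G6pc3, background 27%). The members were chosen from these contrasts, and the counts support nothing.

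**Figure D3:**
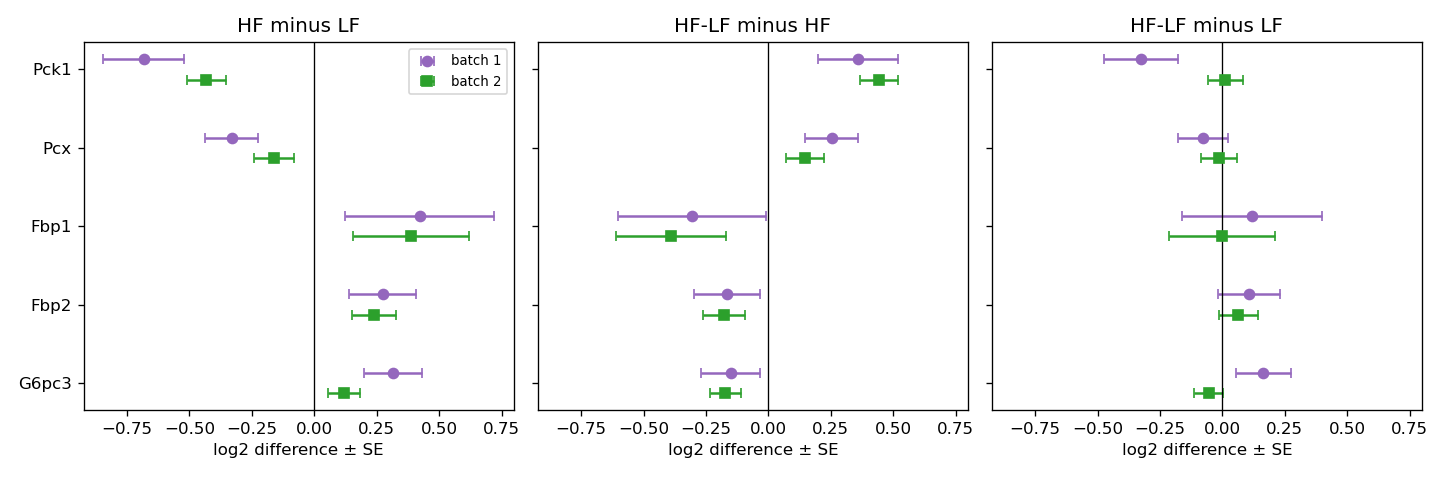
Log2 differences (horizontal axes) with standard errors (bars) of the 5 members with enough counts, for HF minus LF, HF-LF minus HF and HF-LF minus LF; circles are batch 1 and squares batch 2. Pck1 and Pcx are left of 0 and Fbp1, Fbp2 and G6pc3 right of 0 for HF minus LF, and the sides are exchanged for HF-LF minus HF, a contrast that shares the HF samples.

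Within single samples 3 ratios of members were computed. The per-length ratio of Pck1 to Fbp2 lay between 1.28 and 1.42 in the LF samples of batch 2 and between 0.782 and 0.953 in the HF samples, and in batch 1 between 0.967 and 1.67 against 0.5003 and 1.03, which overlapped. The ratio of Pck1 to Pcx lay between 3.47 and 3.86 in LF and between 2.91 and 3.12 in HF samples of batch 2, and overlapped in batch 1, at 2.65 to 3.91 against 2.35 to 2.80. The ratio of Fbp2 to Fbp1 overlapped between LF and HF samples in both batches. These ratios use transcript lengths that are fixed for each gene, so the choice of length scales all samples alike.

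The difference between batches had not been used to choose the members and was tested with diet as a covariate over 23 samples. G6pc3 was higher in batch 2 by 0.46 on the log2 scale (SE 0.05, edgeR's quasi-likelihood test, adjusted p = 4.34e-07), with means of 26.3 CPM in 11 samples and 36.0 in 12. It was the only one of the 5 members called, where 23.9% of 14385 genes were. Pck1 differed by 0.14 (SE 0.07, adjusted p = 0.132), Fbp1 by 0.18 (SE 0.15, adjusted p = 0.333), Fbp2 by -0.07 (SE 0.06, adjusted p = 0.415) and Pcx by -0.11 (SE 0.05, adjusted p = 0.0910), all by edgeR. In the LF samples alone the Pck1 difference had the opposite sign, -0.06.

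The isoenzymes and the transporter that complete the pathway were not called between diets in either batch. Pck2, the mitochondrial carboxykinase, had a log2 difference between HF and LF of 0.39 (SE 0.15, adjusted p = 0.187 by edgeR) in batch 1 and of -0.11 (SE 0.08, adjusted p = 0.369) in batch 2. Pck1 exceeded Pck2 per length in every sample, with the lowest ratio at 6.25. Slc37a4, which carries glucose-6-phosphate into the endoplasmic reticulum, differed by -0.05 (SE 0.11, adjusted p = 0.800) and -0.004 (SE 0.07, adjusted p = 0.975). G6pc2, the islet form, had 0 to 18 counts per sample. Between batches Pck2 was called, higher in batch 2 by 0.38 on the log2 scale (SE 0.08, adjusted p = 5.19e-04 by edgeR). Slc37a4 was higher there by 0.26 (SE 0.05, adjusted p = 2.04e-04 by edgeR) but differed by less than 1.2 times. For G6pc2 the difference was -0.40 (SE 0.39, adjusted p = 0.426 by edgeR).

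Genes around the pathway were taken from 8 lists of 119 genes, of which 105 were tested in each batch. In batch 1 edgeR called 0 of them in any contrast. For HF minus LF 33 of them (31.4%) had an unadjusted p under 0.05, beside 22.2% of all genes, and DESeq2 called 11 of them and 512 of all genes. For HF-LF minus HF 18.1% had such a p beside 10.9% of all, and DESeq2 called 1 and 17. For HF-LF minus LF the shares were 5.71% and 5.3%, and DESeq2 called 0 and 6. In batch 2, 9 rose and 14 fell in HF against LF mice, 21.9% of the tested list beside 7.7% of all genes (3.11% higher and 4.59% lower). In HF-LF against HF mice 13 rose and 13 fell, 24.8% beside 14.6% (9.02% higher and 5.61% lower). Both contrasts share the HF samples. The lists were drawn up with earlier results of these data known. Their shares and p-values, also list by list below, are descriptions and no independent support. For HF-LF minus LF 0 of 105 were called by edgeR in batch 2, with 9 at an unadjusted p under 0.05 (8.57% beside 4.52% of all genes) and 1 called by DESeq2. The counts of batch 2 rest on single libraries: for HF minus LF 1 gene was called without LF replicate 1, LF replicate 3 or HF replicate 2, 2 without HF replicate 3, 7 without LF replicate 2 and 12 without HF replicate 1, and for HF-LF minus HF 1 was called without HF replicate 2 and 17 without HF-LF replicate 4.

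Of the regulators of Pck1 and G6pc, 7 of 32 tested genes fell in HF mice of batch 2 and 0 rose. This share of 21.9% stood beside 4.59% of all genes lower and 7.7% in either direction. The median log2 difference was -0.21 beside -0.01 for all genes. In HF-LF against HF mice 6 rose (18.8%, beside 9.02% of all genes higher and 14.6% in either direction) and 0 fell. Nr4a1, an immediate-early nuclear receptor, had a mean of 217 ± 54.1 CPM in 4 LF samples and 104 ± 44.4 in 3 HF samples, which overlapped (log2 difference -1.06, SE 0.28, adjusted p = 0.0444 by edgeR). Sik1, a kinase that restrains the CREB coactivators, fell from 60.0 ± 9.56 to 34.5 ± 8.74 CPM without overlap (log2 difference -0.80, SE 0.17, adjusted p = 0.0288 by edgeR). Crtc2, a CREB coactivator, fell by 0.42 (SE 0.09) and Nr2f2 (COUP-TFII) by 0.44 (SE 0.12) on the log2 scale. In batch 1 the HF minus LF values were -1.33 (SE 0.30) for Nr4a1 and -1.21 (SE 0.24) for Sik1, which were not called (adjusted p = 0.134 for both by edgeR).

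Of the insulin and glucagon signalling genes, 4 of 13 fell in HF mice of batch 2 and 0 rose. This share of 30.8% stood beside 4.59% of all genes lower and 7.7% in either direction. The list did not fall as a whole: its median log2 difference was -0.02 beside -0.01 for all genes, with 5 of 13 above 0 and 8 below. Irs2, an adaptor of the insulin receptor, had 98.7 ± 10.3 CPM in LF and 55.5 ± 9.98 in HF samples (log2 difference -0.83, SE 0.12, adjusted p = 0.00780 by edgeR). Among the named pathway genes, Irs2 was the only one called in both contrasts whichever single library of batch 2 was left out. Irs1 fell by 0.58 (SE 0.17) and the receptor Insr by 0.34 (SE 0.09) on the log2 scale, and the adenylyl cyclase Adcy6 by 0.33. In HF-LF against HF mice Irs2 was higher by 0.95 (SE 0.12), Irs1 by 0.66 (SE 0.16) and Insr by 0.40 (SE 0.09). In batch 1 Irs2 had a log2 difference of -0.84 (SE 0.27) and Irs1 of -0.65 (SE 0.22) for HF minus LF, neither called (adjusted p = 0.161 and 0.165 by edgeR). Insr differed there by -0.14 (SE 0.11), with overlapping groups, and was not called.

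Of the genes for the reversible steps that glycolysis and gluconeogenesis share, 4 of 10 rose in HF mice of batch 2 and 0 fell. This share of 40% stood beside 3.11% of all genes higher and 7.7% in either direction. On the log2 scale Pgk1 rose by 0.46 (SE 0.10), Pgam1 by 0.40 (SE 0.09), Gapdh by 0.33 and Tpi1 by 0.30. Pgk1, phosphoglycerate kinase, had 150 ± 21.5 CPM in LF and 206 ± 14 in HF samples (adjusted p = 0.0263 by edgeR). In HF-LF against HF mice these 4 fell. In batch 1 none was called, with 6 of the 10 differences between HF and LF above 0 and 4 below. Pgk1 differed there by 0.28 (SE 0.14) and Pgam1 by 0.09 (SE 0.12), both with overlapping groups. Of the opposing glycolytic enzymes 2 of 13 rose in batch 2 (15.4%, beside 3.11% of all genes higher and 7.7% in either direction). Pfkp rose by 0.32 and Pfkfb3, which makes the activator of phosphofructokinase, by 0.92 (SE 0.25, adjusted p = 0.0380 by edgeR). The list did not rise as a whole: in batch 2, 7 differences between HF and LF were above 0 and 6 below (median 0.04). In batch 1 only 1 was above 0 and 12 were below (median -0.16). The Pfkfb3 call rests on HF replicate 2, with 8.14 CPM against 3.44 and 3.99 in the other HF samples and 2.37 to 3.06 in the LF samples: without it the log2 difference was 0.47 and was not called. In batch 1 it was -0.26 (SE 0.29). Gapdh, Tpi1, Pfkp and Adcy6 were named after their values were seen, as were the genes called in the next paragraph other than Dgat2, Mgll and Slc5a9.

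The glycerol and glyceroneogenesis list holds genes of the other outlet of Pck1 and also lipases such as Mgll and Lipe. Of its tested genes 2 of 9 rose and 2 fell in HF mice of batch 2 (44.4%, beside 7.7% of all genes). Dgat2, the last enzyme of triglyceride synthesis, had 63.5 ± 12.6 CPM in LF and 97.5 ± 2.74 in HF samples (log2 difference 0.62, SE 0.14, adjusted p = 0.0290 by edgeR). Mgll, a monoglyceride lipase, rose by 0.52 (SE 0.15), with 0.74 (SE 0.21) in batch 1, where it was not called. For Dgat2 the batch 1 difference was 0.18 (SE 0.14), with overlapping groups. Gpam, the first enzyme of glycerolipid synthesis, fell by 0.34 and the lipase Lipe by 0.40 on the log2 scale. Of the genes for carbon entry and carriers, 1 of 18 was called (Mdh1, higher by 0.27). This share of 5.56% stood beside 3.11% of all genes higher, and did not exceed the 7.7% called in either direction. In HF-LF against HF mice 4 fell (Ldha, Mdh1, Mpc1 and Mpc2) and 1 rose (Tat), 27.8% beside 14.6%. Of the glucose transporters 1 of 7 fell (Slc2a8, by 0.33), which is 14.3% beside 4.59% of all genes lower and 7.7% in either direction. Slc5a9 was called only for HF-LF minus HF, higher by 0.52 (SE 0.17). In batch 1 that Slc5a9 difference was 0.05 (SE 0.15).

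**Figure D4:**
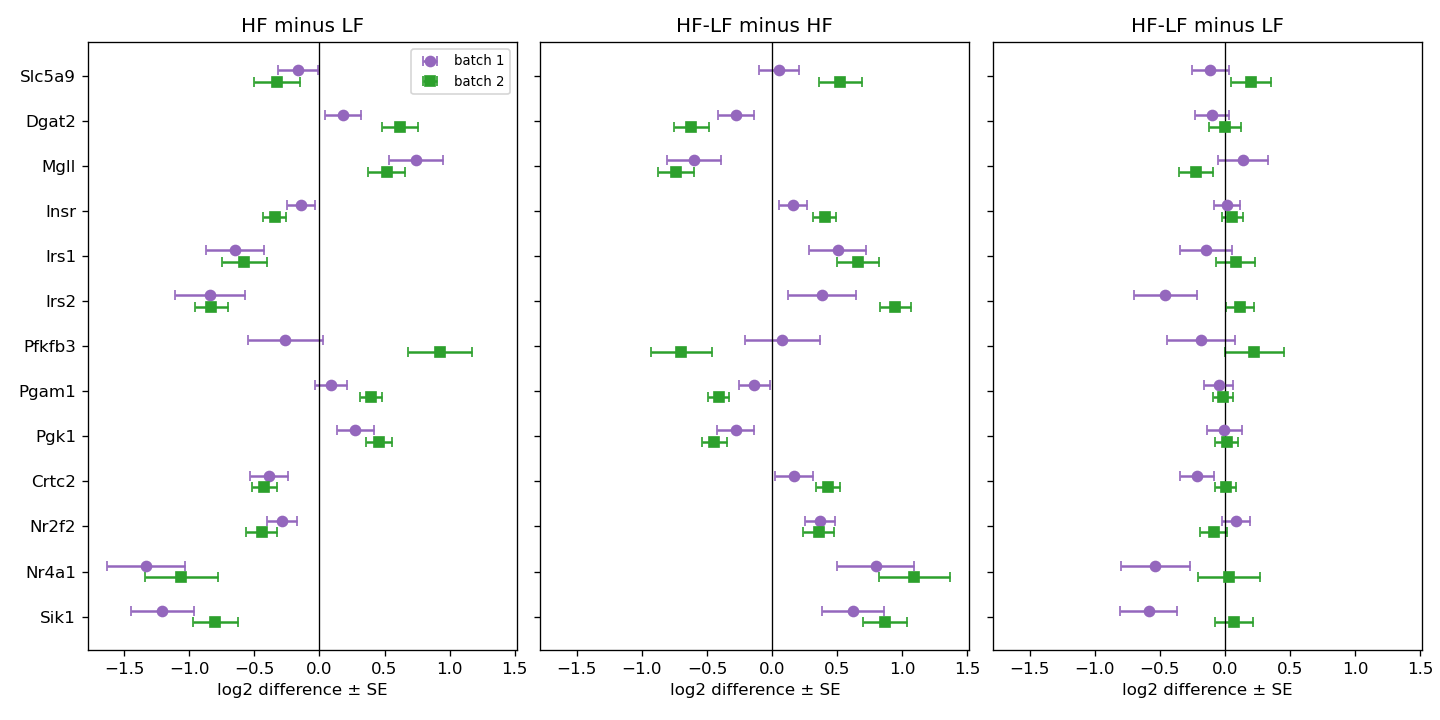
Log2 differences (horizontal axes) with standard errors (bars) of 13 of the 14 pathway genes with the largest called difference, for the 3 contrasts; circles are batch 1 and squares batch 2. Nr4a1, Sik1 and Irs2 lie furthest to the left for HF minus LF, Pfkfb3 has opposite signs in the batches, and values for HF-LF minus LF in batch 2 lie near 0.

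The tissue label was checked against marker lists, as summed CPM. The 8 epithelial markers summed to between 11949 and 15715 CPM in every sample, against 17.7 to 30.5 for immune cell markers and 4.53 to 59.2 for fibroblast and endothelial markers. Adipocytes also express Pck1: Adipoq, which defines them, had 0 counts in 15 of 23 samples and at most 7. Lpl (210 to 1115 counts per sample), Cidec (116 to 757) and Car3 (9 to 69) had counts in every sample. Lpl and Cidec made up most of the sum of the list. The 11 adipocyte markers summed to 20.9 to 30.6 CPM in LF and 23.8 to 34.5 in HF samples of batch 1, and to 11.7 to 18.1 and 16.2 to 19.0 in batch 2. The summed muscle markers were lower in HF than in LF samples without overlap, at 10.3 to 21.4 against 23.5 to 44.5 CPM in batch 1 and 15.6 to 24.0 against 43.7 to 75.7 in batch 2. Acta1, skeletal actin, was called lower in both batches, with means of 9.38 and 26.1 CPM in HF and LF samples of batch 1 and 15.4 and 42.7 in batch 2. In batch 1 the list did not move together: 5 of the 8 tested had a log2 difference above 0 (median 0.16), against 1 of 8 in batch 2 (median -2.31). Fibroblast and endothelial markers summed to 4.53 to 35.8 CPM in HF against 21.8 to 35.8 in LF samples of batch 1. In batch 2 they summed to 8.97 to 20.2 against 14.4 to 40.7. The groups overlapped in both batches, and edgeR called 0 of these markers. Of those tested, 7 of 8 had a log2 difference below 0 in batch 1 (median -0.43) and 7 of 7 in batch 2 (median -1.01). Small intestine markers summed to 396 to 734 against 381 to 474 and to 483 to 555 against 351 to 533, surface colonocyte markers to 7148 to 12121 against 7332 to 9355 and to 7927 to 8863 against 6150 to 8921, crypt base and proliferation markers to 474 to 711 against 350.2 to 555 and to 614 to 708 against 604 to 700, and the 4 distal colon position genes in the table to 299 to 316 against 237 to 377 and to 271 to 349 against 267 to 349 (HF against LF, batch 1 and then batch 2). Immune cell markers overlapped, at 21.4 to 26.3 CPM in HF against 23.9 to 30.5 in LF samples of batch 1. In batch 2 they stood at 17.8 to 20.7 against 17.9 to 23.7. The part of these cell types in the results was not tested, and in bulk samples fewer cells of a type and less RNA per cell cannot be told apart.

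The genes most like Pck1 across samples were found among 12417 genes with a mean of at least 1 CPM, as Pearson's r of log2 CPM after subtracting the mean of the batch. The highest were Ddx23 (r = 0.90), Aspg (0.89), Tpra1 (0.89), Junb (0.89), Unkl (0.89), Smad7 (0.89), Jun (0.89) and Cln3 (0.89), over 23 samples. With group means subtracted, which removes diet, their r lay between 0.67 and 0.79. The lowest were Usp14 (r = -0.94), Vkorc1l1 (-0.90), Rars (-0.89) and Psmc2 (-0.89). Usp14, a deubiquitinase of the proteasome, kept r = -0.86 with group means subtracted, and -0.91 without the 2 samples whose Pck1 lay farthest from the median. Large r was common among the 12417 genes: 5% had r above 0.72 and 5% below -0.73. The named genes are the ends of this range. Of the members, Pcx had r = 0.75, G6pc3 -0.73, Fbp2 -0.66 and Fbp1 -0.54. With group means subtracted, r was 0.48 for Pcx, -0.43 for G6pc3, -0.41 for Fbp2 and -0.42 for Fbp1. All points share their libraries, depth and diets, so these values are a description.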

How the data were processed

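The authors deposited raw counts per gene locus for 23 samples, without normalization. Per the labels and the study's methods they filtered reads on base quality, trimmed them with cutadapt 1.2.1, mapped them to mm10 with STAR 2.5 and counted them with featureCounts 1.5.0-p1, from stranded libraries. The handling of reads that map to several genes is not given in the sources used here. Between 29189922 and 65320947 reads were counted per sample.

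The test of record was edgeR 4.0.16, run under R 4.3.3 (TMM scaling, filterByExpr by diet, quasi-likelihood F test with robust glmQLFit), with the 3 diets of a batch in one fit and Benjamini-Hochberg adjustment over all genes; the thresholds for calls follow the study's methods. DESeq2 1.42.0 was an alternative. Scripts were tested on simulated data. No 2 libraries of the same diet agreed within sampling noise (lowest chi-square per degree of freedom 11.3).

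The members and gene lists were chosen with earlier results of these data known. Named genes were the 6 members, Pck2, G6pc2 and Slc37a4, up to 14 called pathway genes with the largest differences, and the 8 genes most and 4 least correlated with Pck1; others are marked. Of the listed genes 2 are not reported here by name or value. Some settings were replaced after their results had been seen: a robust dispersion estimate, a low-count filter by diet and batch, and the joined length of all exons. All 3 are kept as alternatives. Promoter windows were from RefSeq, and transcript lengths from GENCODE.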

Additional observations from a re-analysis of the deposited data

Results flagged for a closer look

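In 84 groups of 4 or 5 samples, single values that stood apart by Dixon's criterion were found 4 times, where chance gives about 1 in 20 groups. Pcx stood at 191 CPM in replicate 2 of the LF samples of batch 1, the others between 158 and 163. G6pc3 stood at 34.8 CPM in replicate 4 of the LF samples of batch 2, the others between 36.6 and 36.8. Slc37a4 stood at 44.5 CPM in replicate 3 of the HF-LF samples of batch 2, the others between 51.1 and 53.6. Sik1 stood at 78.5 CPM in replicate 2 of the HF-LF samples of batch 1, the others between 47.4 and 50.1.

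Pck2 differed between HF and LF mice in opposite directions: each HF sample was above the LF mean in batch 1 (mean difference 9.93 CPM) and below it in batch 2 (-3.81 CPM). The interaction of diet and batch gave an adjusted p of 0.711 by edgeR, so a difference between the batches was not established.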

How the results depend on the processing

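Pck1 kept the sign of its HF minus LF and HF-LF minus HF differences under all alternatives run; without 1 library each they ranged from -0.83 to -0.55 and 0.23 to 0.50 in batch 1, and from -0.51 to -0.36 and 0.37 to 0.52 in batch 2. In a single model of both batches with batch as a covariate its HF minus LF difference was -0.56 and its HF-LF minus LF difference -0.15. The Pck1 difference between batches, 0.14, reversed to -0.063 in LF samples alone, and the cause was not tested. G6pc3 was called between batches under every alternative. A robust dispersion estimate, chosen after seeing the data like the 2 settings that follow, changed no count, and a low-count filter by diet and batch moved the genes called between batches from 3443 to 3518. With joined exon lengths, Pck1 and Fbp2 exchanged places in level per kilobase, as did G6pc3 (14.1) and Slc37a4 (16.1).

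Counts of called genes depended on the setting. For HF minus LF in batch 1, 1 gene of all (Acta1) and 0 pathway genes were called; without the low-count filter 2 of all, with only the 2 groups compared 0, by DESeq2 512 and 11, and with both batches in 1 fit 2601 and 29. For HF-LF minus HF in batch 1, 1 gene (Scd1) and 0 pathway genes became 2 without the filter, 0 with only the 2 groups, 17 and 1 by DESeq2, and 1493 and 25 with both batches. For HF-LF minus LF, DESeq2 called 6 genes in batch 1, and in batch 2 it called 16 and 1 pathway gene where edgeR called 1 (Scand1) and 0, and the fit of both batches 0. For HF minus LF in batch 2, 1107 genes became 1845 by DESeq2 and 2601 with both batches. Whether same-numbered samples pair was not settled. Between diets of a batch, their deviations correlated above 0.1 in 5 of 10 pairs of batch 1 and 4 of 10 of batch 2. For different numbers it was 8 of 30 and 9 of 37 pairs. Across batches, where samples of a diet could share an animal, it was 4 of 11 same-numbered pairs and 9 of 34 others. Among the comparisons, all pairs passed only for HF-LF and HF samples of batch 1 (r = 0.11, 0.39 and 0.26), and in neither batch did every sample correlate best with its own number. With the replicate number as a block, the genes called were 130 (4 of the pathway), 0 and 0 in batch 1, and 2137 for HF minus LF and 0 for HF-LF minus LF in batch 2. The block ended the calls of Irs1 and Nr2f2 for HF minus LF in batch 2 and of Pfkfb3, Irs1, Slc5a9 and Nr2f2 for HF-LF minus HF. Without the low-count filter Nr4a1, Mgll and Irs1 were not called for HF minus LF (adjusted p = 0.0707, 0.0542 and 0.0671 by edgeR), nor Slc5a9 and Nr2f2 for HF-LF minus HF (0.0812 and 0.0520).

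Leaving out 1 library at a time, the genes called in batch 1 ranged from 0 to 1391 for HF minus LF, the latter without HF replicate 2, from 0 to 3 for HF-LF minus HF and from 0 to 6 for HF-LF minus LF; pathway genes ranged from 0 to 16 for HF minus LF. In batch 2 they ranged from 16, without HF replicate 2, to 2547, without LF replicate 4, for HF minus LF, from 17, without HF replicate 2, to 2747 for HF-LF minus HF, and from 0 to 2 for HF-LF minus LF; pathway genes ranged from 1 to 30 and from 1 to 29 for the first 2 contrasts. The shallowest library held 29189922 counts. G6pc and G6pc2 had few counts at any depth, and G6pc had 0 in the deepest library, HF replicate 3 of batch 2 with 65320947 counts.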
